A study of Rattus norvegicus with 19 samples.

Results

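Bone stem cells were compared with progenitor Leydig cells of the rat, with 3 arrays in each group, that is 6 of the 19 arrays of the series. The arrays were chosen by their titles and the comparison covered all 31042 probe sets that are not controls, on log2(signal + 16). All samples carry the strain label Sprague-Dawley, and no genotype, agent or treatment is labelled for any group. The other arrays hold stem Leydig cells (n = 5), immature and adult Leydig cells, and only the stem Leydig arrays are used below, as the other stem group. Age, sex, tissue of origin beyond the group name, isolation, sorting and culture are not stated in these sources, so what else either preparation holds is known only from its transcripts. Nothing in the labels ties the 3 arrays of a group to different rats or cultures. A p-value here is therefore measured against a spread that may be technical.

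Leydig cells lie between the seminiferous tubules of the testis and make testosterone from cholesterol. Progenitor Leydig cells are the earliest cells of that lineage to carry the luteinizing hormone receptor and steroid-making enzymes, and they arise from mesenchymal stem Leydig cells. Mesenchymal stem cells of bone and its marrow are known for a capacity to form bone, cartilage and fat, and for surface proteins such as Thy1 and CD44. Both kinds of cell are mesenchymal, but they come from different places in the body, which cells of this class record in the Hox genes they express.

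Of 14217 genes, each represented by its brightest probe set over all 19 arrays, 6411 (45.1%) were called, which here means an adjusted p under 0.05 in limma. Among them 2921 (20.5% of all genes) were higher and 3490 (24.5%) lower in bone stem cells. Counts of list members below are to be read beside these shares. The median log2 difference, bone stem minus progenitor, was -0.081 over all genes. The groups did not overlap in 8042 genes (56.6%). A difference of at least 16-fold on the log2(signal + 16) scale was reached by 70 genes (0.492%) higher and 85 genes (0.598%) lower in bone stem cells. Over probe sets, 4390 (14.1%) were higher and 7212 (23.2%) lower, so that 37.8% of the calls were higher. With a further minimum of 2-fold, 2056 probe sets (6.62%) were higher and 3009 (9.69%) lower. The split follows the scaling: 51.3% of calls were higher after quantile normalization, which shifted the median log2 difference by 0.134, and 69.8% after median centring, which shifted it by 0.318, so the direction of a small difference depends on the scaling. Of the 79 called genes picked by the rule for naming genes, 75 differed by at least 2-fold. Against stem Leydig cells, 14.1% of genes were higher and 9.76% lower in bone stem cells.

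**Figure D1:**
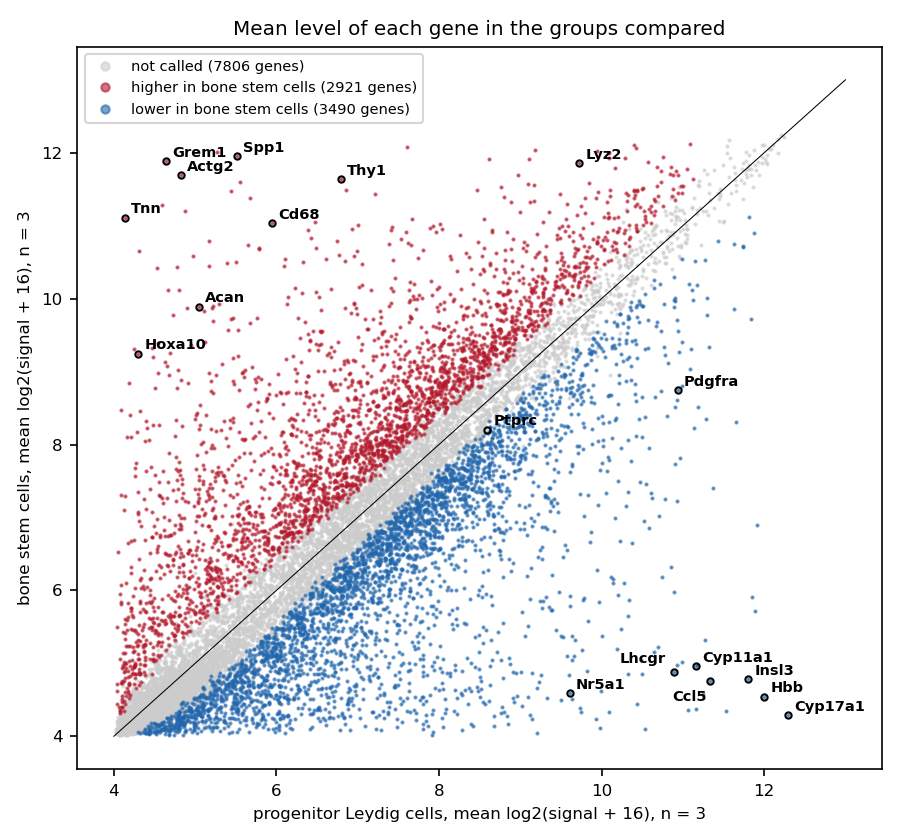
Mean log2(signal + 16) of each of 14217 genes in progenitor Leydig cells (x axis) and bone stem cells (y axis), n = 3 arrays each; red, higher and blue, lower in bone stem cells at an adjusted p under 0.05; the line marks equal means. Steroid, hemoglobin and chemokine genes (Cyp17a1, Insl3, Hbb, Ccl5) lie at the lower right, and Tnn, Grem1, Actg2 and Spp1 at the upper left.

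Some arrays stood apart. Bone stem replicates 2 and 3 differed by a median of 0.061 on the log2 scale over 4626 bright probe sets, against 0.138 to 0.245 for the other pairs within a group, which leaves less independent spread in that group. Bone stem replicate 1 differed at least 4-fold from the log2 mean of the other 2 bone stem arrays in 25 genes (22 above it). For the other bone stem arrays, compared in the same way, these were 2 and 3 genes. It was also the highest bone stem array in 65 of the 85 genes that were at least 16-fold lower in bone stem cells, and in 44.4% of all genes. Its value is therefore given apart wherever it departs. Progenitor replicate 3 had a beta-actin ratio of 3' to 5' signal of 6.346, against 1.285 and 1.501 on the other progenitor arrays. The bone stem arrays lay between these, at 2.384 to 2.951. The Gapdh ratios had the same order, at 1.857 on progenitor replicate 3, 1.065 and 1.088 on the other progenitor arrays and 1.303 to 1.334 on bone stem arrays. The part of RNA quality in the differences between the groups was not tested. Progenitor replicate 3 was the highest progenitor array in 49.2% of all genes and in 48 of the 70 genes that were at least 16-fold higher in bone stem cells. In these whole-preparation values, fewer cells of a type and less RNA per cell cannot be told apart.

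The pathway from cholesterol to testosterone, and the receptors that drive it, marked the progenitor arrays. Of 10 measured genes of testosterone synthesis, 7 were lower and 1 was higher in bone stem cells, with a median log2 difference of -2.36. Of 20 Leydig hormone receptors and regulators, 15 were lower and 2 higher, with a median of -1.63. Some of these genes are known targets or partners of steroidogenic factor 1 (Nr5a1), a nuclear receptor that binds the letters AGGTCA. Start regions of several members are therefore printed here. In the 250 bases before the transcription start in RefSeq's GRCr8 promoter table, AGGTCA or its reverse complement was found in 3 of 6 testosterone synthesis genes with an entry (Cyp11a1, Fdx1 and Por) and in 5 of 18 receptors and regulators (27.8%; Lhcgr, Insl3, Nr5a2, Nr0b1 and Inha). It was found in 13.7% of all 27457 promoters in the table. The shares in other lists were 4 of 16 pan-leukocyte genes (25%), 4 of 20 mesenchymal stem cell markers (20%), 3 of 17 osteoblast genes (17.6%), 2 of 20 cholesterol genes (10%), 1 of 12 gonadal factors (8.33%) and 0 of 19 smooth muscle genes. Other motifs were searched as well. The GATA site AGATAA was in 0 of the 6 testosterone synthesis genes and 3 of the 18 receptors and regulators, against 10% of all promoters. The RUNX site TGTGGT was in 2 and 2 of them, against 14.1%. A CArG box, CC and GG around 6 letters A or T, was in 0 and 1, against 1.5%. The letters AGGTCA are also the core of sites for other nuclear receptors, and a match is a description of the sequence only. Promoters printed here were taken from those that hold AGGTCA. The motif is in capitals in 4 of these promoters, 5′ to 3′ on the strand of the gene, in GRCr8: Cyp11a1 at chr8:67318415-67318664 (plus strand; matches begin 229 and 95 bases before the start), Lhcgr at chr6:11415165-11415414 (plus strand; 133 bases), Insl3 at chr16:18432939-18433188 (plus strand; 108 bases, as the reverse complement TGACCT) and Nr0b1 at chrX:54707408-54707657 (plus strand; 145 bases).
Cyp11a1: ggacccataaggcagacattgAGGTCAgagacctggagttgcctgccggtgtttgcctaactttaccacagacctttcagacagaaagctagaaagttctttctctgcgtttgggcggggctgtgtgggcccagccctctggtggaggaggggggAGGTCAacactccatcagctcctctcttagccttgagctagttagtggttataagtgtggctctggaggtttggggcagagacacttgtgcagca
Lhcgr: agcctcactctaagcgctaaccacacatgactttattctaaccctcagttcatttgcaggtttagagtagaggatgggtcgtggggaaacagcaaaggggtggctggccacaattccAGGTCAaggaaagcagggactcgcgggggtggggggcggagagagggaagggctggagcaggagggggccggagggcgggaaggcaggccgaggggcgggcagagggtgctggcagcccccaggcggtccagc
Insl3: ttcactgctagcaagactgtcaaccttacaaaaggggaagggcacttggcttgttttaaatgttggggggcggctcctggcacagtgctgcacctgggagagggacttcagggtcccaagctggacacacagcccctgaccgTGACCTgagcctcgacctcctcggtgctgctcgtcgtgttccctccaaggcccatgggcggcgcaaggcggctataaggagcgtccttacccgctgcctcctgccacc
Nr0b1: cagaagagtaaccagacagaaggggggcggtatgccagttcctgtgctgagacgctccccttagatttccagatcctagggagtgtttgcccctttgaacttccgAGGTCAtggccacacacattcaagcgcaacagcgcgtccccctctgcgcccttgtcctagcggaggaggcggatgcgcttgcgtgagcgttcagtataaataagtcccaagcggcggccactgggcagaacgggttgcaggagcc

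Cyp11a1, the enzyme that cuts the side chain of cholesterol, had signals of 21.0, 13.8 and 11.5 on the bone stem arrays and 1899, 2722 and 2286 on the progenitor arrays (log2 difference -6.20 ± 0.19, adjusted p = 2.46e-15; here and below ± is the SE of a log2 difference). The groups were separated by a wide gap, and the bone stem signals lay within the dim range of this array. Cyp17a1, which makes androstenedione from progesterone by hydroxylation and lyase steps, read 10.7, 1.02 and 0.534 against 3578, 6284 and 5519 (-8.00 ± 0.26, adjusted p = 7.71e-15). It was the gene with the largest difference in either direction among all 14217. Hsd3b1, the dehydrogenase that makes progesterone from pregnenolone, read 87.5, 22.3 and 21.2 against 2586, 4546 and 4527 (-6.16 ± 0.35, adjusted p = 2.81e-11), with bone stem replicate 1 above the other two. Hsd17b3, which makes testosterone from androstenedione, was dim in both groups, at 15.9, 7.26 and 6.97 against 46.7, 35.8 and 74.8 (-1.37 ± 0.24, adjusted p = 0.000149), although the groups did not overlap. Fdx1, which passes electrons to Cyp11a1, was measured at 315 ± 121 and 3271 ± 747 (mean ± SD, n = 3, as for all such pairs below, bone stem cells first).

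Star, which carries cholesterol into the mitochondrion, did not follow the enzymes on every array. Its signals were 442, 15.9 and 15.9 in bone stem cells and 1079, 1449 and 580.1 in progenitor cells (-3.67 ± 0.71, adjusted p = 0.000353). Bone stem replicate 1 lay close to the lowest progenitor array, whereas the other two were dim. Without bone stem replicate 1 the log2 difference was -4.95 (adjusted p = 1.45e-07), and without replicate 2 or 3 it was -3.03; over all alternatives the adjusted p was 0.0163 at most. A further Star probe set gave the same order, 224.7 on bone stem replicate 1 against 6.58 and 7.76 on the others. The 5 stem Leydig arrays read 243 to 1446 for Star, a range that holds bone stem replicate 1 and lies above replicates 2 and 3. The difference between these groups was called (bone stem minus stem Leydig -3.03 ± 0.64, adjusted p = 0.00178). Stem Leydig signals of 10.4 to 19.1 for Cyp11a1 did not differ from those of bone stem cells beyond the error (-0.01 ± 0.17, adjusted p = 0.974). Tspo, a mitochondrial outer membrane protein long studied for a part in cholesterol import, was the member that was higher in bone stem cells, at 1604, 1238 and 1108 against 419, 356 and 548 (1.55 ± 0.28, adjusted p = 0.000179).

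Among the receptors, Lhcgr, the receptor for luteinizing hormone, read 15.9, 12.6 and 12.3 in bone stem cells and 1823, 2326 and 1582 in progenitor cells (-6.01 ± 0.16, adjusted p = 3.68e-16). Insl3, the peptide hormone of Leydig cells, read 11.3, 13.1 and 10.5 against 2656, 4247 and 3985 (-7.02 ± 0.29, adjusted p = 2.82e-13). The stem Leydig arrays were as dim, at 9.22 to 15.4 for Lhcgr (bone stem minus stem Leydig 0.08 ± 0.14, adjusted p = 0.791) and 11 to 23.9 for Insl3 (-0.19 ± 0.26, adjusted p = 0.733). The prolactin receptor Prlr (3.37 ± 1.80 and 396 ± 44.3) and the inhibin alpha subunit Inha (42.5, 31.7 and 37.3 against 707, 671 and 582) had the same direction, at log2 differences of -4.41 ± 0.36 and -3.65 ± 0.22. Pdgfra, the platelet-derived growth factor receptor that marks Leydig precursors, was present in both groups but brighter in progenitor cells, at 407, 412 and 419 against 1679, 2198 and 1982 (-2.19 ± 0.22, adjusted p = 1.21e-07). Its relative Pdgfrb, a receptor of pericytes and stromal cells, had the opposite direction, at 366, 370.5 and 380.0 against 44.3, 38.8 and 45.0 (2.73 ± 0.27, adjusted p = 1.01e-07). Stem Leydig arrays read 345 to 724 for Pdgfrb, a range that holds the bone stem values (bone stem minus stem Leydig -0.47 ± 0.24, adjusted p = 0.211). Gja1, the gap junction protein connexin 43, was also higher in bone stem cells (4197 ± 735 and 982 ± 193, 2.08 ± 0.20, adjusted p = 5.25e-08).

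**Figure D2:**
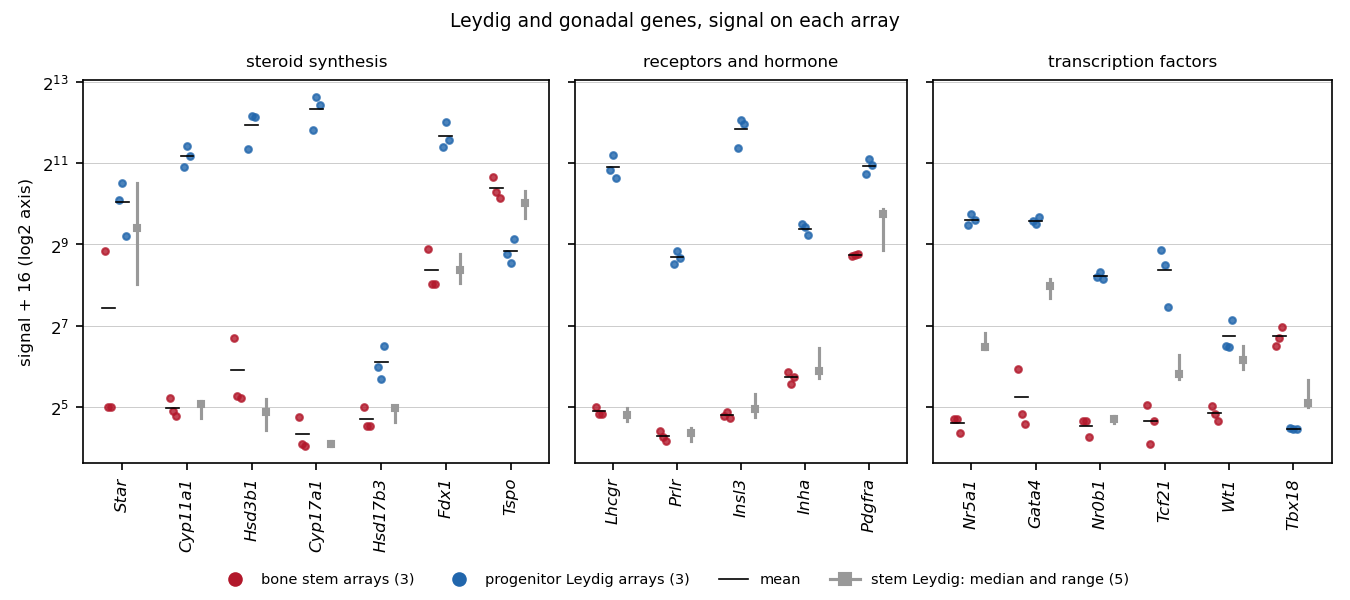
Signal + 16 on a log2 axis for steroid synthesis genes, receptors and hormones, and gonadal transcription factors; points are arrays (red, bone stem; blue, progenitor Leydig), dashes the mean signal of a group, grey bars the range of the 5 stem Leydig arrays with the median. Progenitor points lie above bone stem points for all genes drawn but Tspo and Tbx18, and for Star bone stem replicate 1 (442) lies near the lowest progenitor array (580.1).

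Enzymes that inactivate or rework steroids were mixed. Of 19 measured, 6 (31.6%) were lower, 2 (10.5%) higher and 11 not called, against 24.5% lower and 20.5% higher over all genes. The median was -0.24, and 5 were higher with median centring and 1 without progenitor replicate 1 or 2. Sult1a1, a sulfotransferase that acts on phenols and estrogens, was the most different, at 27.2, 16.1 and 21.5 against 1652, 1700.1 and 1560.0 (-5.47 ± 0.20, adjusted p = 2.89e-14). Akr1c14, the 3-alpha-hydroxysteroid dehydrogenase that reduces dihydrotestosterone, had means of 18.7 ± 12.1 and 235 ± 123 (-2.75 ± 0.33, adjusted p = 1.29e-06). Hsd17b12, an enzyme of fatty acid elongation with some activity on estrone, was higher in bone stem cells (1113 ± 50.9 and 614 ± 19.9, 0.84 ± 0.17, adjusted p = 0.000379). Hsd11b1, which regenerates active glucocorticoid, was bright in both groups and was not called (992 ± 294 and 661 ± 37.2, 0.54 ± 0.34, adjusted p = 0.235).

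The sterol pathway was lower in bone stem cells almost throughout. Of 26 measured genes of cholesterol synthesis, uptake and storage, 21 (80.8%) were lower and 2 higher, against 24.5% and 20.5% of all genes, and the median log2 difference was -1.20. Scarb1, the receptor that takes up cholesteryl esters from high-density lipoprotein, read 134, 132 and 144 against 1602, 2011 and 1654 (-3.53 ± 0.17, adjusted p = 3.01e-12). Dhcr7, the enzyme of the last step of cholesterol synthesis, read 133, 152 and 154 against 1388, 1543 and 1745 (-3.28 ± 0.17, adjusted p = 9.03e-12). Idi1, an isomerase early in the pathway, had means of 112 ± 18.5 and 1174 ± 346. The sterol sensor Insig1 (-2.53 ± 0.20), Cyp51 (-1.88 ± 0.19), Sqle (-1.28 ± 0.16) and the transporter Stard4 (-1.56 ± 0.21) were lower as well. The exporter Abca1, which cells raise when sterol is plentiful, shared this direction (121 ± 59.0 and 1662 ± 151, -3.69 ± 0.30, adjusted p = 5.53e-09). The exceptions were the lysosomal proteins Npc2, which hands cholesterol out of the lysosome (3305, 3780.5 and 3630.4 against 1565, 1651 and 1673, 1.12 ± 0.18, adjusted p = 5.49e-05), and Lipa, the lysosomal acid lipase (438 ± 80.7 and 239.7 ± 28.2, 0.82 ± 0.15, adjusted p = 0.000217). Lysosomal genes are also abundant in macrophages, whose markers were higher in the same arrays as described below, and their part in these 2 values was not tested.

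Transcription factors of the gonad differed in both directions, with the large differences on the lower side. Of 19 measured, 9 (47.4%) were lower and 5 (26.3%) higher in bone stem cells, against 24.5% and 20.5% of all genes. The median was -0.65, and 2 were higher of the 14 left without the lowest 40% of probe sets. Nr5a1 read 9.84, 10.2 and 4.58 in bone stem cells and 697, 839.5 and 765 in progenitor cells (-5.02 ± 0.13, adjusted p = 3.68e-16). Gata4, a zinc finger factor of the somatic gonad, read 44.8, 12.2 and 7.78 against 743, 709 and 797 (-4.47 ± 0.23, adjusted p = 5.43e-12). Tcf21, a basic helix-loop-helix factor of gonadal and other mesenchyme, read 17.2, 0.863 and 9.34 against 449.8, 342 and 159 (-3.67 ± 0.29, adjusted p = 2.78e-09). In each of these genes the stem Leydig arrays lay between the groups and above bone stem cells: Nr5a1 read 70.5 to 96.3 (bone stem minus stem Leydig -1.95 ± 0.12, adjusted p = 2.84e-10). Gata4 read 190.1 to 269 there (-2.85 ± 0.20, adjusted p = 2.42e-09) and Tcf21 35.3 to 61.4 (-1.29 ± 0.26, adjusted p = 0.00101). Nr0b1, the repressor DAX1, was lower in bone stem cells too (7.19 ± 3.59 and 283 ± 17.4, -3.70 ± 0.16, adjusted p = 6.79e-13), and so were Wt1 (-1.87 ± 0.32), Lhx9 (-1.77 ± 0.21) and Nr2f2 (-1.67 ± 0.15), factors of the early gonad and its interstitium. The members higher in bone stem cells included Tbx18, a T-box factor of mesenchyme (75.1, 88.4 and 110.1 against 6.30, 5.84 and 6.07, 2.27 ± 0.18, adjusted p = 4.89e-09), and Six4 (29.2 ± 3.26 and 0.476 ± 0.319). The sex determination factors Dmrt1 (18.5, 15.6 and 17.8 against 7.70, 1.98 and 2.13, 0.75 ± 0.17, adjusted p = 0.00167) and Foxl2 (34.1, 45.1 and 20.4 against 3.58, 5.03 and 20.5, 0.96 ± 0.31, adjusted p = 0.0179) were dim in both groups and called higher in bone stem cells. The call of Foxl2 was lost without bone stem replicate 2 and without progenitor replicate 1 or 2.

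Hox and limb factors, which keep a record of position along the body and limb, differed by cluster. Of 39 measured positional factors, 16 were higher and 6 lower in bone stem cells, with a median of 0.20, and 8 were higher of the 21 left without the lowest 40% of probe sets. Members of the Hoxa cluster were higher in bone stem cells. Hoxa10 read 506, 659 and 619.8 against 4.94, 3.93 and 2.20 (4.95 ± 0.24, adjusted p = 3.46e-12). Hoxa9 had means of 175 ± 31.8 and 3.27 ± 1.80 (3.30 ± 0.16, adjusted p = 3.59e-12), and Hoxa11 had means of 98.9 ± 14.5 and 12.4 ± 3.40 (2.01 ± 0.20, adjusted p = 8.17e-08). Hoxa5 and Hoxa7 were higher too, at log2 differences of 1.55 ± 0.21 and 0.81 ± 0.13. Members of the Hoxd cluster had the opposite direction. Hoxd8 read 149, 202 and 195 against 735, 792 and 774 (-2.0 ± 0.12, adjusted p = 7.28e-11), and Hoxd9 (-2.15 ± 0.16), Hoxd10 (-1.42 ± 0.17), Hoxd3 (-1.19 ± 0.23) and Hoxd4 (-1.16 ± 0.23) were lower, while Hoxd1 and Hoxd11 were not called. The limb mesenchyme factors Prrx1, Prrx2 and Shox2 were higher in bone stem cells, at 2.60 ± 0.25, 2.55 ± 0.26 and 2.47 ± 0.25; Shox2 read 43.4, 128 and 101 on the bone stem arrays and 5.25, 0.416 and 0.778 on the progenitor arrays. Stem Leydig cells sat on the progenitor side for Hoxa10 at 25.1 to 59.8 (bone stem minus stem Leydig 3.46 ± 0.22, adjusted p = 4.14e-10) and for Hoxd8 at 448 to 526 (-1.36 ± 0.11, adjusted p = 1.2e-08).

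Markers used for mesenchymal stem cells, most but not all of them surface proteins, differed in both directions. Of 28 measured, 13 were higher and 10 lower in bone stem cells, with a median of 0.50. Thy1 read 2890.0, 3469 and 3161 in bone stem cells against 78.9, 78.4 and 135 in progenitor cells (4.85 ± 0.28, adjusted p = 3.57e-11). Cd44, the hyaluronan receptor, read 572, 534 and 528 against 122, 105 and 81.4 (2.25 ± 0.33, adjusted p = 1.64e-05). Eng, the co-receptor endoglin, overlapped between the groups at 138, 94.2 and 96.5 against 160.0, 134 and 246 and was not called (-0.62 ± 0.30, adjusted p = 0.112). Nt5e, the ecto-nucleotidase CD73, overlapped as well, at 312, 201 and 201 against 368, 394 and 269. It was called lower (-0.51 ± 0.19, adjusted p = 0.037), and this call was lost in 7 of 17 alternatives (adjusted p up to 0.509, with median centring). Grem1, a secreted BMP antagonist that marks skeletal stem cells, read 3291, 4094 and 3933 against 1.99, 13.4 and 13.2 (7.24 ± 0.19, adjusted p = 3.68e-16). Stem Leydig arrays read 1129 to 1506 for Grem1, below bone stem cells (1.47 ± 0.17, adjusted p = 2.38e-06), and 1772 to 2379 for Thy1 (0.64 ± 0.25, adjusted p = 0.0857). In the same comparison Nt5e was higher in bone stem cells (1.29 ± 0.17, adjusted p = 9.57e-06) and Eng lower (-1.63 ± 0.27, adjusted p = 0.000149). Of the 28 markers, 5 were higher and 12 lower in bone stem than in stem Leydig cells, against 14.1% and 9.76% of all genes. The further members given here are again compared with progenitor cells. S100a4 (3869 ± 407 and 387 ± 101), the aminopeptidase Anpep (2.51 ± 0.23), Mcam (1.67 ± 0.46) and Itga5 (1.99 ± 0.27) were higher. Markers lower in bone stem cells included Vcam1, an adhesion molecule of marrow stroma and of Leydig precursors (43.4, 22.2 and 15.2 against 861, 598 and 694, -4.13 ± 0.22, adjusted p = 1.05e-11), Fap (-2.46 ± 0.16) and Cd200 (-2.03 ± 0.43). Ptprc, the leukocyte antigen CD45, is meant to be low in mesenchymal stem cells but read 417, 226 and 229 in bone stem cells, as described below. The part of leukocytes in the marker differences was not tested. No probe set was named for Cd34, Runx2, Sp7, Sox9 or Ptch1 in the annotation used here.

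Bone, cartilage and fat genes are described beside the label of bone origin. They do not test it, because the lists were chosen with earlier results of these data known. Several genes of the osteoblast were higher in bone stem cells, while osteocalcin was near 0 in both groups. Of 23 osteoblast genes, 11 were higher and 3 lower, with a median of 0.50, and 6 were higher of the 15 left without the lowest 40% of probe sets. Alpl, the bone phosphatase, read 75.3, 181 and 190.2 in bone stem cells against 26.6, 28.4 and 29.8 in progenitor cells (1.81 ± 0.39, adjusted p = 0.000879). Ibsp, bone sialoprotein, read 108, 173 and 184 against 12.5, 13.3 and 26.9 (2.35 ± 0.31, adjusted p = 4.6e-06). Stem Leydig arrays read 0.900 to 1.73 for Alpl, below bone stem cells (3.17 ± 0.35, adjusted p = 9.41e-07). The parathyroid hormone receptor Pth1r (82.5 ± 28.8 and 7.74 ± 6.54), osteoprotegerin Tnfrsf11b (2.85 ± 0.34) and the pyrophosphate-making Enpp1 (2.88 ± 0.23) were higher. Spp1, osteopontin, which macrophages also make, read 3794, 4209 and 3912 against 27.8, 25.4 and 37.0 (6.44 ± 0.32, adjusted p = 3.92e-12). Bglap, osteocalcin, the marker of mature osteoblasts, was near 0 in both groups (0.799, 5.33 and 6.04 against 0.490, 1.01 and 0.923). Its call (0.24 ± 0.08, adjusted p = 0.0199) was lost in 7 of 16 alternatives (adjusted p up to 0.128). Col1a1 and Col1a2, the chains of type I collagen, were bright in both groups and not called (2389 ± 288 and 1334 ± 559; 4629 ± 648 and 3077 ± 633). Omd, a small proteoglycan of bone, was lower in bone stem cells (26.0, 23.6 and 18.9 against 419.8, 420.1 and 256, -3.27 ± 0.21, adjusted p = 1.36e-10).

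Among 15 cartilage and tendon genes, 3 (20%) were higher and 1 (6.67%) lower, against 20.5% and 24.5% of all genes. The median was 0.04, and 6 were higher with median centring and 5 with quantile normalization. The lower member was Mia, a secreted cartilage protein that was dim in both groups (7.84, 12.1 and 8.02 against 19.7, 17.9 and 30.9, -0.60 ± 0.18, adjusted p = 0.0111), and its call was lost in 4 of 17 alternatives (adjusted p up to 0.232). Acan, the core protein of aggrecan, read 899, 959.7 and 940.3 against 16.8, 12.7 and 22.5 (4.84 ± 0.24, adjusted p = 3.5e-12), and stem Leydig arrays read 11.8 to 43.2 (4.78 ± 0.21, adjusted p = 3.22e-12). The tendon factor Scx read 55.3, 229.9 and 229 against 3.13, 3.28 and 4.33 (3.05 ± 0.36, adjusted p = 1.16e-06), with bone stem replicate 1 the lowest of its group. Col2a1, Col10a1, Comp and Matn1, genes of mature cartilage, had means under 16 in both groups and were not called. Of 19 fat cell genes, 8 (42.1%) were higher and 4 (21.1%) lower (2 with median centring), with a median of 0.38. The lower share was near the 24.5% of all genes. Pparg, the nuclear receptor of fat cell formation, read 137, 145 and 151 against 16.8, 20.4 and 22.3 (2.16 ± 0.21, adjusted p = 9.01e-08), above the stem Leydig arrays at 19.6 to 30.6 (2.01 ± 0.19, adjusted p = 1.64e-07). The lipoprotein lipase Lpl read 2232, 1063 and 1093 against 19.7, 19.2 and 21.4 (5.27 ± 0.32, adjusted p = 6.05e-11). The fatty acid carrier Fabp4 read 828, 222 and 211 against 1.40, 0.365 and 1.09 (4.40 ± 0.39, adjusted p = 2.03e-08). Bone stem replicate 1 had the highest value of both, and Pparg, Lpl and Fabp4 are also expressed by macrophages, whose part was not tested. The mature fat cell genes Adipoq, Plin1 and Lep had means of 7.97, 15.8 and 0.683 in bone stem cells and were not called. Cd36, the fatty acid translocase, was lower in bone stem cells (50.7, 20.1 and 20.6 against 290.2, 309 and 226, -2.70 ± 0.36, adjusted p = 4.28e-06).

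**Figure D3:**
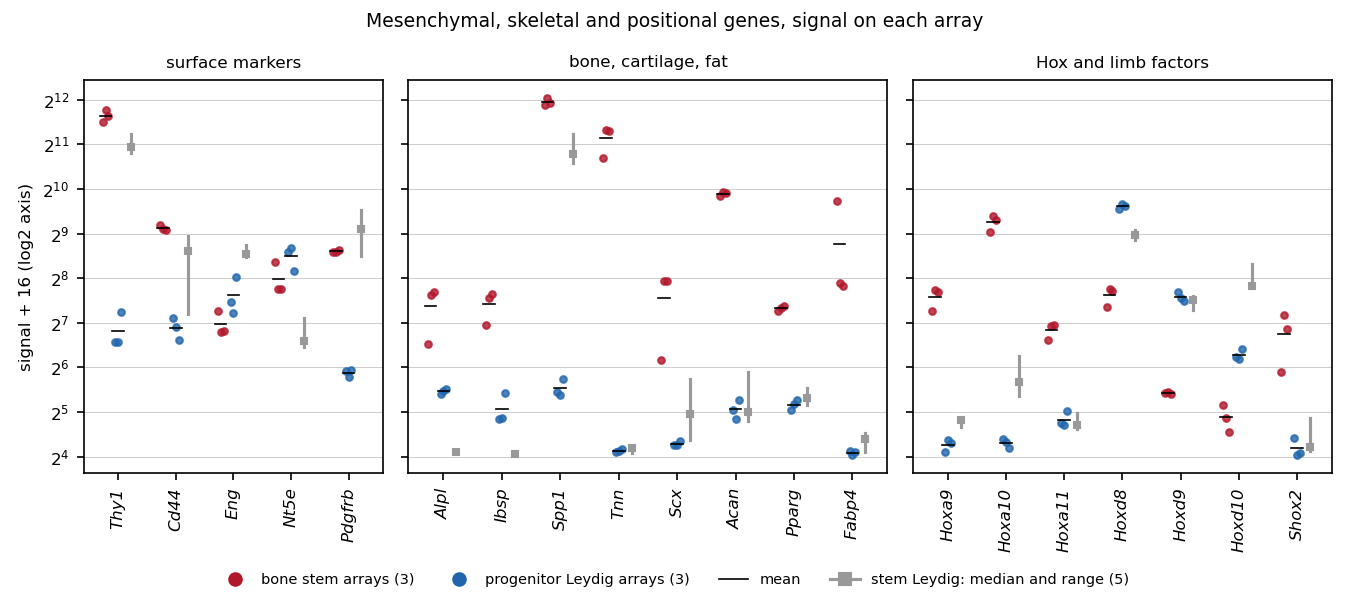
Signal + 16 on a log2 axis for surface markers, bone, cartilage and fat genes, and Hox and limb factors; symbols as in the plot of Leydig and gonadal genes. Bone stem points lie above progenitor points for Thy1, Cd44, Pdgfrb, the skeletal and fat genes drawn, the Hoxa genes and Shox2, below them for the Hoxd genes, and overlap with them for Eng and Nt5e.

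Transcripts of matrix proteins were called higher in bone stem cells in a larger share than over all genes (20.5%), with single members in the other direction. Of 35 collagens and collagen processing enzymes, 19 were higher and 4 lower in bone stem cells, with a median of 1.13; leaving out bone stem replicate 2 or 3, or progenitor replicate 1 or 2, left 2 lower. The fibril-organising chains Col5a3 (190.4 ± 5.23 and 6.56 ± 6.35), Col11a1 (891 ± 260.4 and 10.7 ± 4.93) and Col12a1 (3.48 ± 0.18) were higher. So was Col8a1 (4.66 ± 0.26), a collagen chain of another class. All 3 prolyl 4-hydroxylase subunits measured were higher, with P4ha3 at 562, 862 and 847 against 26.0, 19 and 36.0 (4.16 ± 0.20, adjusted p = 2.05e-12), and so were the lysyl hydroxylases Plod1, Plod2 and Plod3 (log2 differences of 1.79, 2.16 and 1.93) and the cross-linking enzymes Lox, Loxl1, Loxl2 and Loxl3 (1.40 to 3.30). The basement membrane chain Col4a5 had the opposite direction, at 90.9, 45.2 and 42.4 against 1549.8, 1968 and 1592 (-4.56 ± 0.25, adjusted p = 1.76e-11). Compared with stem Leydig cells, 2 of the 35 genes were higher and 9 lower in bone stem cells, against 14.1% and 9.76% of all genes.

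Of 42 glycoproteins and matricellular proteins, 18 (42.9%) were higher and 11 (26.2%) lower (7 without bone stem replicate 3), with a median of 0.46. Over all genes the shares were 20.5% and 24.5%, so the lower share was near that of all genes. Tnn, a tenascin of bone surfaces and tendon, read 1647, 2554 and 2522 against 1.19, 1.40 and 2.03 (6.98 ± 0.17, adjusted p = 3.63e-16). This gene was chosen by the size of its difference and belongs to no list. It was dim on the stem Leydig arrays as well, at 0.805 to 2.62 (6.96 ± 0.15, adjusted p = 5.99e-17). Its relative Tnc, tenascin C, read 1494, 1616 and 1675 against 2.37, 4.17 and 4.81 (6.35 ± 0.16, adjusted p = 3.63e-16). The stem Leydig arrays read 1229.6 to 1766, not different from bone stem cells beyond the error (0.17 ± 0.14, adjusted p = 0.503). Thrombospondin 2 (Thbs2, 1815 ± 556 and 20.5 ± 7.67), Smoc2 (716, 2040.0 and 1993 against 20.3, 31.4 and 37.5), Ccn2 (4.48 ± 0.35), Ccn5 (4.85 ± 0.22) and fibronectin (Fn1, 2.81 ± 0.32) were higher. Progenitor cells had more of the laminin chain Lama2 (123, 26.5 and 26.1 against 1673, 1888 and 2087, -4.91 ± 0.37, adjusted p = 1.39e-09). They also had more of the proteoglycan decorin (Dcn, 269, 167 and 203 against 2032, 2580.5 and 1489.8, -3.15 ± 0.22, adjusted p = 4.79e-10), and of elastin (Eln, -2.31 ± 0.34) and Efemp1 (-3.92 ± 0.42). Matrix proteases and inhibitors were 22 of 37 higher and 4 lower, with a median of 0.90. The protease nexin Serpine2 read 965, 922 and 877 against 23.6, 21.7 and 18.1 (4.66 ± 0.17, adjusted p = 5.9e-14), gelatinase A (Mmp2) had means of 2883 ± 458 and 341 ± 68.8. Mmp13, collagenase 3, read 716, 162 and 192 against 5.0, 4.91 and 5.72, with bone stem replicate 1 the highest. Mmp12 and cathepsin S (Ctss), which macrophages make, were among the higher members (4.84 ± 0.30 and 3.67 ± 0.34). Timp3, an inhibitor bound to the matrix, was lower in bone stem cells (101, 21.3 and 29.6 against 1233, 1416 and 1207, -4.48 ± 0.33, adjusted p = 1.02e-09).

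Contractile genes were higher in bone stem cells almost throughout. Of 24 smooth muscle and contractile genes, 20 (83.3%) were higher and 2 lower in bone stem cells, with a median of 1.74. Actg2, enteric smooth muscle actin, read 2543, 3874 and 3607 against 10.6, 7.37 and 20.8 (6.86 ± 0.30, adjusted p = 6.92e-13). Acta2, vascular smooth muscle actin, read 1139.9, 2023 and 1942 against 82.5, 91.4 and 52.8 (4.21 ± 0.38, adjusted p = 2.62e-08). The actin-binding Tagln and Cnn1 had log2 differences of 6.06 ± 0.57 and 4.97 ± 0.33. Myh11, the smooth muscle myosin heavy chain, had means of 1004 ± 67.5 and 193 ± 38.1 (2.30 ± 0.47, adjusted p = 0.000623). Stem Leydig arrays read 985 to 2325 for Acta2, a range that holds the bone stem values (bone stem minus stem Leydig 0.14 ± 0.34, adjusted p = 0.86). Compared with stem Leydig cells, 2 of the 24 genes were higher and 2 lower in bone stem cells, against 14.1% and 9.76% of all genes. The collagen-binding integrin Itga11 read 1785, 2894 and 2915 against 6.95, 8.17 and 9.0 (6.69 ± 0.26, adjusted p = 1.23e-13). Rgs5, a pericyte gene, was lower in bone stem cells (41.3, 4.67 and 4.87 against 78.9, 57.8 and 103, -1.69 ± 0.43, adjusted p = 0.00391), as was Itga8 (-1.18 ± 0.35), while desmin (Des, -0.74 ± 0.30, adjusted p = 0.0612) and the factor Myocd (0.08 ± 0.19, adjusted p = 0.777) were not called. Markers of peritubular myoid cells, the contractile cells around the seminiferous tubules, were higher in 6 of 9, and 7 of these 9 markers also belong to the contractile list.

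Hedgehog proteins, insulin-like growth factors, BMPs, TGF-beta and Wnt proteins are secreted signals that mesenchymal cells send and receive. In the hedgehog pathway, 6 of 12 were lower and 6 not called, with a median of -0.76; under quantile normalization and median centring 2 and 4 members were higher, as was 1 without bone stem replicate 1. Gli1, a target and effector of the pathway, read 1.31, 0.928 and 0.938 against 297, 238 and 369 (-4.20 ± 0.29, adjusted p = 5.96e-10). Its signal transducer Smo (61.7 ± 16 and 200.4 ± 27.1), the decoy receptor Hhip (-1.50 ± 0.22) and Gli2 (-1.28 ± 0.22) were lower too. In the insulin-like growth factor axis, 8 of 19 were lower and 2 higher (4 under either other scaling), with a median of -0.33. Binding protein Igfbp2 read 122, 21.9 and 26.1 against 3264, 4353 and 3479 (-5.93 ± 0.36, adjusted p = 6.5e-11), and without bone stem replicate 1 its log2 difference was -6.53. Igfbp3 (12.0, 27.7 and 3.38 against 733, 909 and 650.4), Igfbp5 (16.6, 18.2 and 20.5 against 795, 865 and 719) and Igfbp6 (-3.73 ± 0.39) had the same direction, and the ligand Igf1 had means of 586 ± 21.3 and 1754 ± 292 (-1.54 ± 0.25, adjusted p = 5.25e-05). The receptors Igf1r, Igf2r and Insr were not called. The RNA-binding protein Igf2bp2 was higher in bone stem cells (161 ± 21.4 and 45.6 ± 5.82, 1.52 ± 0.26, adjusted p = 8.01e-05).

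In the BMP, TGF-beta and activin list, 25 of 45 (55.6%) were higher and 10 (22.2%) lower (6 with median centring), with a median of 0.88. The lower share was near the 24.5% of all genes. The ligands Tgfb3 (1614, 2162 and 2103 against 73.9, 75.4 and 55.9, 4.55 ± 0.29, adjusted p = 1.68e-10) and Tgfb2 (2.71 ± 0.28), the activin subunit Inhba (3.00 ± 0.37), the latency proteins Ltbp2 (1342, 1389 and 1379 against 3.86, 10.5 and 22.6) and Ltbp1 (2.84 ± 0.29), and the BMP target Id3 (3.43 ± 0.23) were higher. Besides Grem1, the antagonists noggin (Nog, 86.5, 175 and 163 against 2.76, 6.13 and 5.36) and follistatin (Fst, 2.90 ± 0.31) were higher. Lower members were Inha, the ligands Bmp7 (13.8 ± 5.97 and 113 ± 0.548) and Bmp6 (-1.77 ± 0.31), and the receptor of anti-Müllerian hormone Amhr2 (27.6, 12.7 and 15.1 against 90.1, 89.9 and 218). In the Wnt and Notch list, 7 of 43 (16.3%) were higher, 12 (27.9%) lower and 24 not called, with a median of -0.22. Both shares were near those of all genes (20.5% and 24.5%), so the members given here describe single genes. Wnt6 read 13.3, 4.78 and 10.2 against 299, 325 and 318 (-3.71 ± 0.22, adjusted p = 5.75e-11). The secreted inhibitor Sfrp1 read 115, 75.5 and 70.3 against 1102, 1229 and 561. In bone stem cells the brighter ligands were Wnt5a (409, 559.9 and 518 against 29.2, 37.3 and 30.7) and Wnt4 (59.5, 164 and 142 against 4.24, 6.50 and 16.1), together with the receptor Fzd1 (2.67 ± 0.24) and Dkk3 (777, 793 and 828 against 34.8, 28.9 and 42.2, 4.00 ± 0.23, adjusted p = 3.22e-11). The receptors Notch1, Notch2, Notch3 and Notch4 were not called, and the ligands Jag2 (-0.79 ± 0.20) and Dll4 (-0.86 ± 0.19) were lower.

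Of 47 cell cycle genes, 18 (38.3%) were lower, 6 (12.8%) higher and 23 not called, against 24.5% lower and 20.5% higher over all genes. The median was -0.42, and 7 were lower with median centring and 11 without bone stem replicate 3. The inhibitors Cdkn2a, which encodes p16 and p19ARF, and Cdkn1a, which encodes p21, were higher in bone stem cells. Cdkn2a read 397, 565 and 519.7 against 7.48, 8.15 and 6.34 (4.44 ± 0.21, adjusted p = 2e-12). Cdkn1a read 1466, 2462 and 2392 against 112, 102 and 123 (4.01 ± 0.21, adjusted p = 8.05e-12). Cyclin D1 (Ccnd1), which drives entry into the cycle, was higher as well, at 1444, 1457 and 1516 against 45.9, 43.8 and 72.9 (4.43 ± 0.24, adjusted p = 9.46e-12). Cdkn1c, the imprinted inhibitor p57, had the opposite direction, at 34.9, 22.3 and 28.0 against 663, 594 and 789.7 (-3.98 ± 0.32, adjusted p = 3.38e-09). The replication genes Mcm3 (-1.60 ± 0.24), Mcm7 (-1.55 ± 0.20) and Top2a (-1.27 ± 0.27) were lower in bone stem cells, and the proliferation marker Mki67 overlapped, at 531, 262 and 278 against 422, 388 and 414 (-0.26 ± 0.26, adjusted p = 0.49). Cdkn2a did not differ between bone stem and stem Leydig cells beyond the error (-0.29 ± 0.19, adjusted p = 0.344).

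Antioxidant enzymes differed in both directions, with 13 of 39 higher, 13 lower and a median of -0.05. Higher in bone stem cells were Gpx3, the secreted glutathione peroxidase (2802, 2646 and 2503 against 33.2, 33.1 and 39.7, 5.70 ± 0.24, adjusted p = 3.53e-13), the quinone reductase Nqo1 (2759 ± 141 and 132 ± 8.62), heme oxygenase Hmox1 (1960.5 ± 28.4 and 106 ± 12.9) and Srxn1 (2.16 ± 0.28). The mu and theta glutathione transferases Gstm1 (-3.17 ± 0.27), Gstm2 (-3.35 ± 0.34), Gstt1 (102, 61.2 and 74.7 against 685, 583 and 519, -2.69 ± 0.16, adjusted p = 5.15e-11) and Gstt2 (-2.75 ± 0.17) were lower, whereas the pi-class transferase Gstp1 was higher (1.58 ± 0.24). Peroxiredoxins also differed in direction, with Prdx5 higher (2.71 ± 0.15) and Prdx3 lower (-1.23 ± 0.18). Members of the mu family share much sequence, so their probe sets may read more than their own gene. Of 23 retinoid genes, 10 were lower and 2 higher, with a median of -0.51; 6 were lower under quantile normalization and under median centring. Aldh1a3, which makes retinoic acid, read 5.86, 1.84 and 1.02 against 926, 1118 and 847 (-5.70 ± 0.27, adjusted p = 2.17e-12). Aldh1a1 read 219.7, 5.28 and 8.95 against 1184, 1393 and 1244, with bone stem replicate 1 above its group. Rarres1 was higher in bone stem cells (696, 618 and 625 against 20.0, 10.8 and 14.5, 4.42 ± 0.22, adjusted p = 3.01e-12).

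Immediate early and heat shock genes, 28 in number, included 13 (46.4%) that were lower and 6 (21.4%) that were higher, with a median of -0.71. The higher share was near the 20.5% of all genes, and 3 were higher when all probe sets of a gene were averaged. The early response factors Junb (263, 181 and 163 against 1200.5, 1026 and 841, -2.26 ± 0.27, adjusted p = 9.19e-07), Jun (436 ± 101 and 2033 ± 359), Fos (-1.78 ± 0.37) and Fosb (119, 22 and 21.9 against 629, 308 and 1052) were lower in bone stem cells. Such genes are known to respond within the time of a cell isolation, which is not described for either group, so preparation and cell type cannot be told apart here. The small heat shock protein Hspb1 was higher, at 1869, 3617 and 3448 against 72.7, 89.4 and 149.5 (4.63 ± 0.39, adjusted p = 9.35e-09). Of 52 cytokines, chemokines and their receptors, 16 (30.8%) were higher and 11 (21.2%) lower, against 20.5% and 24.5% of all genes. The median was 0.23, and 26 were higher with median centring. Bone stem cells had more of the interleukin 33 receptor Il1rl1 (549, 593 and 575 against 9.21, 1.89 and 8.77, 4.72 ± 0.21, adjusted p = 9.67e-13) and the B cell attractant Cxcl13 (487, 1318 and 1298 against 11.9, 25.2 and 29.4). They also had more of the monocyte attractants Ccl2 and Ccl7 (3.83 ± 0.64 and 4.05 ± 0.54) and the stromal factor Cxcl12 (1.90 ± 0.27). Ccl5, a chemokine of T and NK cells, read 31.2, 1.70 and 7.96 against 1947, 3188 and 2694 (-6.57 ± 0.44, adjusted p = 3.37e-10). The interferon-induced Cxcl9 (-3.33 ± 0.41) and Cxcl10 (-1.98 ± 0.49) and the eosinophil attractant Ccl11 (11.6, 6.34 and 0.582 against 350.2, 368 and 372) were also lower in bone stem cells.

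**Figure D4:**
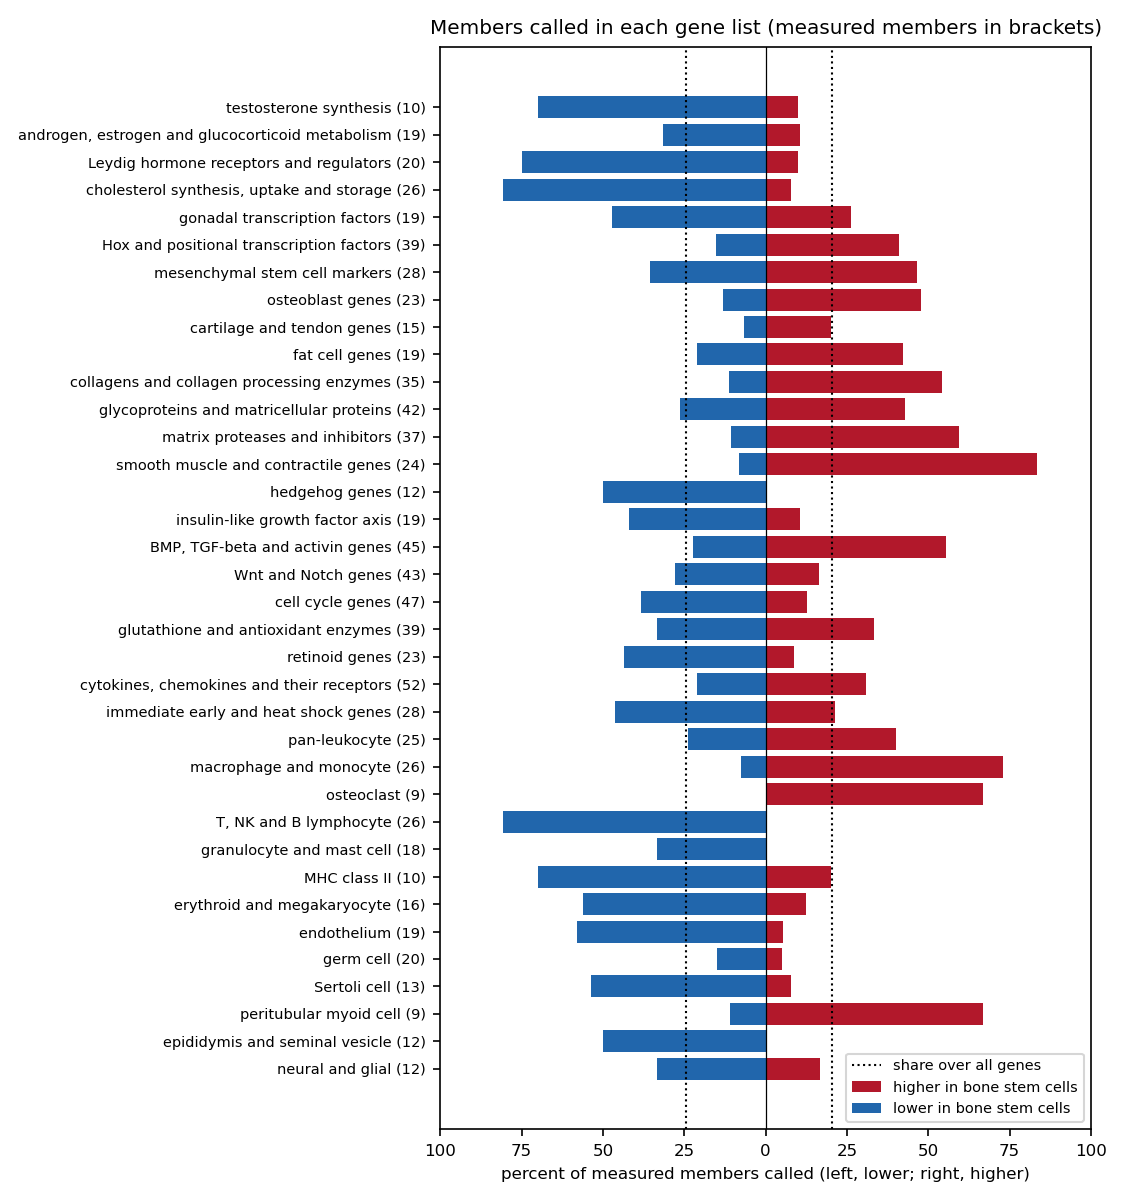
Percent of the measured members of each of 36 gene lists that were called lower (left, blue) or higher (right, red) in bone stem cells, with the number measured in brackets; dotted lines mark the shares over all genes (24.5% lower, 20.5% higher). Cholesterol genes (21 of 26) and lymphocyte markers (21 of 26) lie far to the left, and smooth muscle genes (20 of 24) and macrophage markers (19 of 26) far to the right.

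Leukocyte transcripts were present in both groups, but they came with markers of different leukocytes. Ptprc, the common leukocyte antigen CD45, overlapped between the groups at 417, 226 and 229 against 382, 406 and 323 and was not called (-0.38 ± 0.33, adjusted p = 0.392), whereas stem Leydig arrays read 6.94 to 16.5. A second, dimmer Ptprc probe set was called lower in bone stem cells (log2 difference -1.69, adjusted p = 0.00236). The mean of both Ptprc probe sets was called lower too (-1.04, adjusted p = 0.0169), as was the main probe set with array quality weights (-0.63, adjusted p = 0.0321). Of 25 pan-leukocyte markers, 10 (40%) were higher and 6 (24%) lower, against 20.5% and 24.5% of all genes. The median was 0.35, and 6 were higher without progenitor replicate 1 and 3 lower without bone stem replicate 2. Laptm5, a lysosomal protein of blood cells, was bright in both groups and not called (986 ± 34.1 and 774 ± 113, 0.35 ± 0.30, adjusted p = 0.401). Cybb, the oxidase subunit of phagocytes, read 1326, 891 and 917 against 41.7, 54.0 and 71.1 (3.88 ± 0.27, adjusted p = 4.63e-10). Cd37, a tetraspanin that is strongest in B cells, read 74.7, 33.7 and 50.9 against 176, 222 and 126 (-1.48 ± 0.25, adjusted p = 7.65e-05). The summed signal of the pan-leukocyte list was 14107 to 17572 in bone stem and 9537 to 11401 in progenitor samples, with 2448 to 2726 on stem Leydig arrays.

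Macrophage and monocyte markers were higher in bone stem cells in 19 of 26 measured (73.1%) and lower in 2, with a median log2 difference of 2.71. Their summed signal was 19863 to 24584 in bone stem samples, 1802 to 2349 in progenitor samples and 2475 to 3740 on stem Leydig arrays. Cd68, a lysosomal protein of macrophages, read 1825, 2226 and 2232 against 38.7, 32.4 and 72.0 (5.09 ± 0.27, adjusted p = 8.05e-12). Cd14, the endotoxin co-receptor, read 2046, 1491 and 1441 against 36.0, 38.7 and 43.2 (4.91 ± 0.16, adjusted p = 9.13e-15). Adgre1, the F4/80 antigen, read 558, 452 and 439 against 5.36, 9.48 and 14.7. The growth factor receptor Csf1r read 939.8, 300.2 and 327 against 61.6, 49.0 and 69.0, and lysozyme (Lyz2) had means of 3718 ± 429 and 834 ± 104. Gpnmb, which macrophages, osteoclasts and osteoblasts share, read 3743, 4452 and 4211 against 21.2, 19.2 and 27.6 (6.75 ± 0.24, adjusted p = 2.89e-14). The complement genes C1qa, C1qb and C1qc were high on bone stem replicate 1 alone: C1qa read 1126, 22.4 and 24.2 against 23.3, 20.9 and 41.5 and was not called (1.47 ± 0.79, adjusted p = 0.159). The osteoclast list, which shares lysosomal genes with macrophages, had 6 of 9 higher, among them the proton pump subunit Tcirg1 (559, 417 and 403 against 96.3, 90.2 and 135, 1.95 ± 0.20, adjusted p = 1.89e-07), the acid phosphatase Acp5 (255, 338 and 379.5 against 90.8, 114 and 117) and cathepsin K (Ctsk, 0.67 ± 0.12), while the calcitonin receptor Calcr, a defining gene of osteoclasts, had means of 7.94 and 15.9 and was not called. The part of macrophages in the differences of the mesenchymal marker, matrix, fat and antioxidant genes was not tested.

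Lymphocyte markers had the opposite direction, with 21 of 26 (80.8%) lower in bone stem cells and a median of -2.08; under quantile normalization and median centring 1 member was higher. The summed signal was 402 to 1095 on bone stem arrays, highest on replicate 1, and 8494 to 11194 on progenitor arrays. On stem Leydig arrays it was 179.8 to 285. Cd7, a protein of T and NK cells, read 11.7, 19.8 and 15.0 against 1898, 2701 and 2372 (-6.21 ± 0.33, adjusted p = 7.83e-12). The cytotoxic granule genes Nkg7 (1.43, 1.11 and 1.36 against 899.9, 1014 and 1087), Gzma (6.13, 4.51 and 2.15 against 1012, 1193 and 1034) and Prf1 (2.01, 2.46 and 1.39 against 405, 511 and 425) showed the same separation. The T cell receptor chains Cd3g (19.7, 11.3 and 11.6 against 160.1, 177 and 222), Cd3d and Cd3e (-2.06 ± 0.35 and -2.09 ± 0.26) were lower as well, and the B cell gene Cd79b read 0.775, 0.502 and 0.617 against 15.3, 30.7 and 72.8. Gzmb was not called, and bone stem replicate 1 was the highest of all 6 arrays at 788, 161 and 171 against 469, 399 and 213. Of 18 granulocyte and mast cell markers, 6 were lower (3 with median centring) and 12 were not called. S100a9, a neutrophil protein, read 8.03, 0.576 and 0.639 against 35.2, 64.8 and 86.4 (-2.0 ± 0.23, adjusted p = 8.27e-07).

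Class II genes of the major histocompatibility complex divided. Of 10, 7 were lower and 2 higher, with a median of -1.57. RT1-Da, an antigen-presenting chain, read 23.5, 6.14 and 5.98 against 567, 553 and 645 (-4.49 ± 0.34, adjusted p = 1.39e-09). The invariant chain Cd74 read 79.2, 12.5 and 7.62 against 591, 755 and 1162 (-4.36 ± 0.40, adjusted p = 3.18e-08). The peptide-loading chains RT1-DMa and RT1-DMb were higher in bone stem cells, at 554, 336 and 325 against 37.1, 40.9 and 69.2 and 632, 449 and 398 against 88.6, 98.5 and 124.

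**Figure D5:**
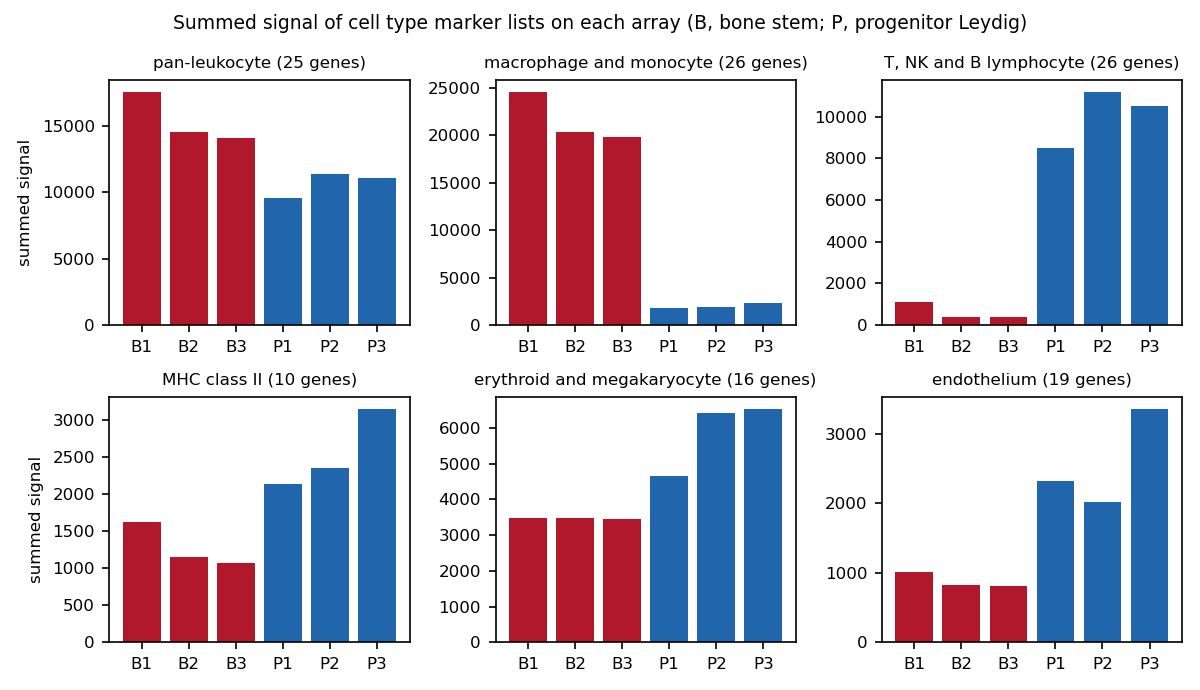
Summed signal of 6 marker lists on each bone stem (B1 to B3, red) and progenitor Leydig array (P1 to P3, blue), each panel with its own linear axis from 0. Pan-leukocyte sums were 9537 to 17572 on all 6 arrays, macrophage sums were highest on bone stem arrays (19863 to 24584) and lymphocyte sums on progenitor arrays (8494 to 11194).

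Markers of red cells and vessels were lower in bone stem cells more often than higher. Hbb, beta globin, read 18.9, 2.62 and 3.49 against 3086, 4631 and 4741 (-7.46 ± 0.31, adjusted p = 3.07e-13), and Alas2, the heme enzyme of red cells, had means of 4.65 ± 4.19 and 279 ± 56.0. Of 16 erythroid and megakaryocyte markers, 9 were lower and 2 higher. The higher members were the transferrin receptor Tfrc (1.65 ± 0.29) and Pf4, platelet factor 4, at 1964, 1582 and 1545 against 23.2, 24.1 and 64.1 (5.09 ± 0.33, adjusted p = 2e-10), while the platelet genes Itga2b (7.61 and 13.6) and Ppbp (2.95 and 16.3) were dim in both groups. Of 19 endothelial markers, 11 were lower and 1 higher, with a median of -1.02; the higher call was lost without bone stem replicate 2 or 3 or progenitor replicate 1. Plvap, a protein of vessel fenestrae, read 3.74, 2.28 and 2.90 against 73.8, 63.2 and 104 (-2.32 ± 0.19, adjusted p = 7.65e-09). The tight junction protein Cldn5 read 6.23, 4.88 and 7.09 against 394, 349 and 753, highest on progenitor replicate 3. Of 13 Sertoli cell markers, 7 were lower and 1 higher, while their summed signal was higher in bone stem samples (3553 to 4240.2 against 2719 to 2956). Cldn11, a tight junction protein of those cells, read 19.5, 11 and 6.82 against 298, 256 and 539.9 (-3.69 ± 0.28, adjusted p = 2.18e-09) and Amh was near background in both groups. Germ cell markers gave 3 of 20 (15%) lower and 1 (5%) higher (5 higher with array quality weights), with a median of 0.03. Both shares were below those of all genes. Uchl1, also a gene of neurons and fibroblasts, was the higher member (366, 493 and 483 against 6.96, 11.3 and 27.2, 3.94 ± 0.23, adjusted p = 3.36e-11) and the protamine Prm1 was not called. Svs5, a seminal vesicle secretory gene, read 5.02, 1.83 and 6.55 against 2304, 3429 and 3219 (-7.18 ± 0.20, adjusted p = 9.53e-16) and was dim on stem Leydig arrays (2.90 to 9.42). Of the related genes, Svs4 and Svs6 were called lower too, and the call of Svs4 was lost in 5 alternatives. Svs1 and Svs3a were not called and had means of 14.2 and 7.57 in progenitor cells. Of the 12 epididymis and seminal vesicle markers, 6 (50%) were lower and 0 higher, against 24.5% and 20.5% of all genes. Their summed signal was 54.9 to 102.9 on bone stem arrays and 2725 to 3804 on progenitor arrays, with Svs5 making up most of the latter. In 12 neural and glial markers, 4 (33.3%) were lower and 2 (16.7%) higher, against 24.5% and 20.5% of all genes. With median centring, or without bone stem replicate 2 or 3 or progenitor replicate 1 or 2, 2 were lower. Among the lower was the neuronal tubulin Tubb3, at 139.9, 45.0 and 35.4 against 286, 286 and 252 (-1.88 ± 0.27, adjusted p = 1.14e-05). The part of these other cells in the differences of the mesenchymal and gonadal genes was not tested.

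Among the 8 largest differences in each direction, some genes lie in no list. Ass1, argininosuccinate synthase of the urea cycle, read 9.58, 3.49 and 1.78 against 2145, 2996 and 1842 (-6.79 ± 0.28, adjusted p = 2.09e-13). Cpa1, a carboxypeptidase best known from the pancreas, read 9.14, 0.441 and 4.95 against 1989, 2549 and 1879 (-6.70 ± 0.51, adjusted p = 2.08e-09). Acsbg1, an acyl-CoA synthetase of steroid-making tissues and brain, read 27.6, 1.31 and 2.07 against 1981, 2479 and 2847 (-6.67 ± 0.27, adjusted p = 2.09e-13). On the bone stem side Gpr15lg, a secreted ligand of the receptor Gpr15, read 2406, 2374 and 2270.5 against 11.3, 14.2 and 14.6 (6.33 ± 0.33, adjusted p = 7.03e-12). On the stem Leydig arrays Ass1, Cpa1 and Acsbg1 were as dim as on the bone stem arrays, with ranges of 1.52 to 13.2, 1.63 to 7.93 and 2.59 to 13.1.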

How the data were processed

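The authors deposited linear intensities, 1 for each probe set on an array. The submitters' processing notes name MAS5 and GCOS without versions. Per the labels' protocols, 6 ug of RNA, purified with Trizol and a column, went into biotin-labelled cRNA. The deposited signals were already scaled to a 2% trimmed mean of 100.0 on each array. Of 31099 probe sets, 57 controls were left out. In the platform annotation 20826 have 1 gene symbol, 436 several and 9780 none, and 20758 were matched in a RefSeq gene table (GRCr8), with 0 symbols updated.

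Signals were transformed to log2(signal + 16), which understates the fold of dim genes. Group means of all 19 arrays in 5 groups were fitted with limma 3.58.1 in R 4.3.3 (lmFit, and eBayes with an intensity trend), so that the groups share an estimate of the spread. Tests were 2-sided with Benjamini-Hochberg adjustment over 31042 probe sets. The number of arrays limits the precision. The 36 gene lists (951 symbols, 824 with a named probe set) and the members were chosen with earlier results of these data known, so lists are described by counts and medians. Named genes were the 8 largest differences in each direction among called genes with separate groups, a brighter mean at or above the median probe set and no symbol of a predicted gene only; the called member with the smallest adjusted p in each direction of a pathway list, and of each marker list in either direction; and a set of lineage genes named whatever their result. Further members describe a list. In 3 list genes (Maf, Slc2a4 and Timp2) probe sets were called in both directions, and they are not used as examples. The fit was tested on simulated data. The alternatives were other normalizations, pseudocounts of 1 and 64, a filter on the lowest 40%, other variance models, fewer arrays, a replicate block, a 2-fold minimum and 1 value per gene. Tables were handled in pandas 2.3.3 (Python 3.11.15) and plots drawn with matplotlib 3.10.9.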

Additional observations from a re-analysis of the deposited data

How the results depend on the processing

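Of the 18 alternatives, 17 were fitted for each gene and reversed no direction among the 81 named genes; the other, a 2-fold minimum, was passed by 75 of the 79 that were called. Of these 79, 76 kept call and direction in each of those fits that included them. Bglap, Mia and Nt5e lost their calls in some, Eng gained one with array quality weights, and Ptprc gained one there and with its probe sets averaged. Of 518 called genes in the lists, 403 kept their call in those fits, 115 fell under the threshold in at least 1, and none was called the other way; 390 passed the 2-fold minimum.

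The main counts were 4390 probe sets higher and 7212 lower in bone stem cells. Median centring gave 8785 higher and 3800 lower, so the balance of directions rests on the scaling. A 2-fold minimum gave 2056 and 3009. Averaging the probe sets of a gene gave 2732 and 3759, over 14217 genes in place of 31042 probe sets. Quantile normalization gave 5657 and 5375, array quality weights 5562 and 9604, and bone stem replicates 2 and 3 averaged into 1 sample 3796 and 5709. Leaving out each array in turn gave 3794 to 4299 higher and 5689 to 6757 lower. The counts under the alternatives not given here lay within 1.5 times the main ones.

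The labels do not say whether replicate numbers pair the samples. Same-numbered samples deviated from their group means with correlations of 0.071, -0.011 and 0.004, and samples of different numbers with -0.087 to 0.068. With 3 arrays in each group these values cannot decide whether samples were paired. With the number as a replicate block, over the 6 arrays alone, 4046 probe sets were higher and 6415 lower, against 4251 and 6865 without the block.

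The deposited signals carry no detection calls, so probe sets with signals under 16 have no tested floor. They made up 43.6% to 47.3% of probe sets on bone stem arrays and 34.2% to 40.1% on progenitor arrays. The median signal was 18.9 to 22.4 on bone stem arrays and 27.5 to 32.7 on progenitor arrays. In simulated data of this design, 29 of 50 probe sets made 2-fold lower and 35 of 50 made 2-fold higher were recovered, against 50 and 49 of 50 at 4-fold, with 4 false calls. Only these probe sets, all with a mean at or above the median, were changed there, whereas 37.4% of probe sets were called in the real data. The adjusted p sets a stricter cut where few probe sets differ, so the recovered shares do not carry over. How completely differences of 2-fold or less are covered in the real data was not tested.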

Other observations

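Genes outside the lists were read in order of their difference, so these were chosen after their values were seen. Lower in bone stem cells were Xcl1, a chemokine of activated lymphocytes (1.44, 1.63 and 0.367 against 1327, 1682 and 1408 on the progenitor arrays, limma log2 difference -6.43 ± 0.37, adjusted p = 3.36e-11), the alcohol dehydrogenase Adh1c (28.0, 23.3 and 3.61 against 1777, 2070.5 and 2203, -5.97 ± 0.24, adjusted p = 1.79e-13), the calcium-binding protein calretinin, Calb2 (15.4, 14.6 and 9.08 against 1180.2, 1866 and 1335, -5.65 ± 0.22, adjusted p = 1.29e-13), and the water and glycerol channel Aqp9 (9.36, 1.87 and 9.33 against 587, 772 and 789, -5.01 ± 0.23, adjusted p = 1.34e-12). Dpt, dermatopontin, read 120.0, 0.691 and 12.4 against 2218, 2523 and 2659 (-5.95 ± 0.45, adjusted p = 2.04e-09), with bone stem replicate 1 above its group. The imprinted transcript Meg3 had means of 21.3 ± 7.65 and 1157 ± 134 (-4.99 ± 0.35, adjusted p = 5.75e-10), and its stem Leydig range of 211 to 923 lay above all 3 bone stem values.

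Higher in bone stem cells were the water channel Aqp1 (2517, 3113 and 2859 against 24.6, 21.5 and 37.0, 6.03 ± 0.21, adjusted p = 1.72e-14), the branched-chain aminotransferase Bcat1 (1248, 1393 and 1429 against 6.00, 2.95 and 13.7, 5.89 ± 0.17, adjusted p = 1.54e-15) and Irx3, a homeobox factor of patterning (396, 777 and 776 against 3.00, 3.72 and 2.27, 5.07 ± 0.32, adjusted p = 1.45e-10). Sncg, gamma synuclein, read 1431, 1566 and 1569.5 against 15.4, 14.0 and 17.3 (5.61 ± 0.34, adjusted p = 5.99e-11). Stem Leydig arrays read 30.7 to 79.5 for Sncg and 8.29 to 54.5 for Irx3, below the bone stem arrays, but 752 to 1104 for Bcat1, near them.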
